A study of Rattus norvegicus with 60 samples.

Results

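Before a cell divides it must leave G1, copy its DNA in S phase and separate the copies in mitosis. Many proteins of these steps have messages that rise around their step. Cyclin-dependent kinases bound to D- and E-type cyclins release E2F transcription factors from the retinoblastoma proteins, which turns on the S phase genes. A later wave of genes for G2 and mitosis follows, whereas inhibitor proteins of the Cdkn1 and Cdkn2 families hold the kinases back. In a joint at rest few cells divide, while a lymph node always holds some dividing lymphocytes.

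Such genes were read here from knees and lymph nodes of haemophilia A rats, which lack working coagulation factor VIII and so bleed easily. The 54 genes were chosen by name, with earlier results of these data known. They were 19 S phase genes, 23 genes of G2 and mitosis, and 12 regulators of G1. A gene was measured by its highest-mean probe set among those annotated with exactly 1 gene symbol, and 49 of the 54 had one (17, 21 and 11 by class), out of 18166 genes on the array named in this way. Rrm1, Tk1, Birc5, Cenpe and Ccnd3 had no such match here.

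All 20 rats had haemophilia A. In 11 of them (K1 to K11) a bleed had been induced in the left knee, which the labels also call the injured knee, and 9 others (C1 to C9) had a sham procedure. Tissue was taken 24 h later. Intra-articular knee tissue and the popliteal node, a lymph node behind the knee, gave 11 arrays each for the bled knee, the contralateral knee, the node on the bled side and the contralateral node. Sham rats gave 7 knee and 9 node arrays. The bled side was always left and the contralateral and sham sides right, so effects of the bleed, of the injury and of the side cannot be told apart. Values are log2 expression on 1 array per sample, and a difference of 1 is 2-fold.

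Array medians ran from 5.64 to 5.94. The tissues matched their labels: the mean of 7 B cell genes was 10.70 to 11.36 in nodes and 5.42 to 6.50 in knees, and that of 10 synovial fibroblast genes 10.44 to 11.54 in knees and 7.99 to 8.89 in nodes. Skeletal muscle genes varied from 6.25 to 12.73 between knees. Sham knee C5 and sham nodes C9 and C2 correlated least with the rest of their groups (0.965, 0.965 and 0.984). The contralateral knee of rat K10, the bled knees of K2 and K11 and both nodes of K3 also stood apart, as described with the genes concerned.

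The bled knee was compared first with the contralateral knee of the same rats, as groups without pairing. Expression was higher in the bled knee for all 17 S phase genes measured and all 21 mitosis genes measured, and the G1 regulators split, with 6 higher, 4 lower and 1 not called. A gene was called at an adjusted p under 0.05 in limma over all 36685 probe sets. By that rule 44 of the 49 members were called higher, against 19.5% of all probe sets, and 4 lower, against 15.2%. The members were chosen with earlier results of these data known, so these shares describe the list and do not test it. The median difference was 1.402 over the members and 0.00 over all probe sets.

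**Figure D1:**
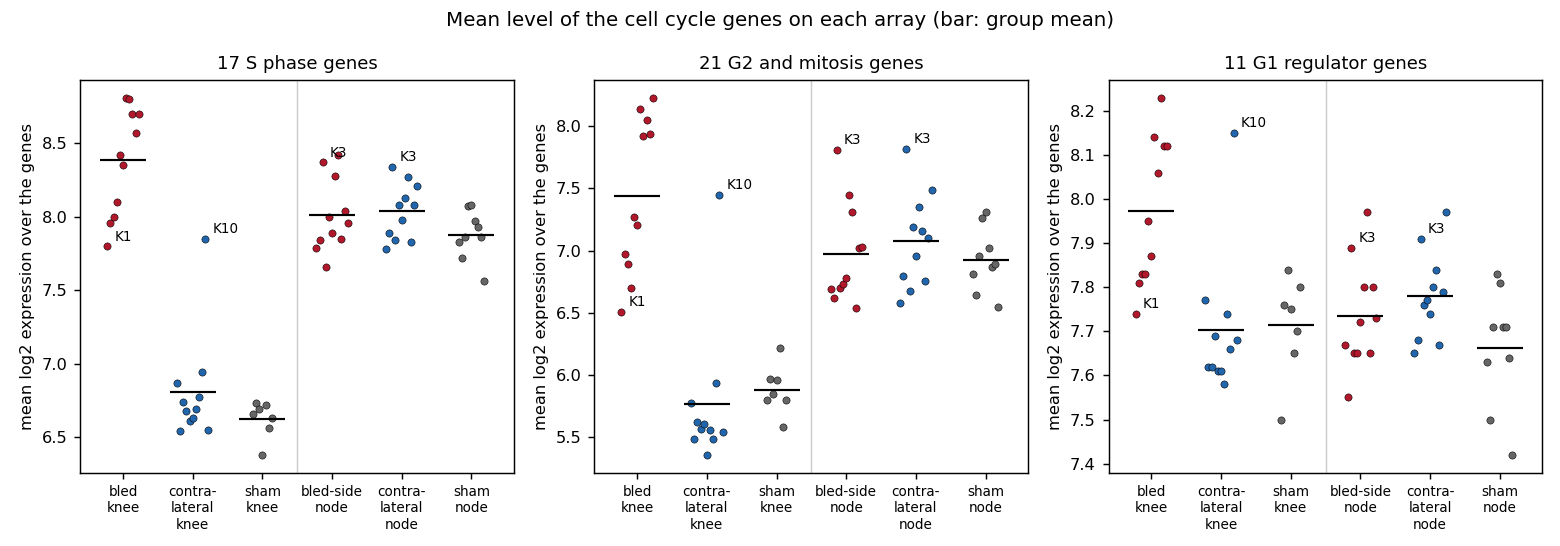
Each point is 1 array, and its height is the mean log2 expression of the S phase, G2 and mitosis, or G1 regulator genes in the 3 knee and 3 lymph node groups. Bars are group means. Bled knees lie above the other knees in the first and second panels, apart from the contralateral knee of rat K10. The vertical scales differ between panels and do not start at 0.

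The S phase genes rose by 0.50 to 3.27 on the log2 scale, with a median of 1.51, and 14 of 17 at least doubled. Their class mean was 7.80 to 8.81 in bled knees (median 8.42), 6.54 to 7.85 in contralateral knees (median 6.69) and 6.38 to 6.73 in sham knees (median 6.66). Bled and sham knees did not overlap. Bled and contralateral knees overlapped only through K10, whose contralateral mean of 7.85 lay above the lowest bled mean (7.80, K1), the next contralateral mean being 6.94.

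The regions before these genes often held E2F words. RefSeq promoter sequences (GRCr8, 250 bases before to 50 after the start) matched 37 of the 49 members. An E2F word, here TTTGGCGC, TTTGCCGC, TTTCGCGC or TTTCCCGC on either strand, was in 9 of 14 S phase promoters (64.3%), 1 of 18 mitosis promoters (5.56%) and 0 of 5 G1 regulator promoters, against 2.25% of all 27457 promoters. These words can overlap their own reverse complement and the word CCAAT, and a match describes letters only. The 120 bases before the start are shown for 4 S phase genes in whose window the word lies near the start: Mcm5 at chr19:13488693-13488812 on the plus strand, Gins1 at chr3:160184800-160184919 on the plus strand, Mcm2 at chr4:122918095-122918214 on the minus strand and Tyms at chr9:120776084-120776203 on the minus strand. Sequences read 5′ to 3′ along the gene, and capitals mark E2F words and CCAAT or its reverse complement.
Mcm5: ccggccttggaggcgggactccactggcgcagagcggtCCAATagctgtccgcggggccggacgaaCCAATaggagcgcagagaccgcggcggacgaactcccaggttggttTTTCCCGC
Gins1: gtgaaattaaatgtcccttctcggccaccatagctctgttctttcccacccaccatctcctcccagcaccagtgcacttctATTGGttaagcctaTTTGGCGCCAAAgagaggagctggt
Mcm2: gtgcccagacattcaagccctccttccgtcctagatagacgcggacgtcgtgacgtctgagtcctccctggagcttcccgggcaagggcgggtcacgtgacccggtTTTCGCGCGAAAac
Tyms: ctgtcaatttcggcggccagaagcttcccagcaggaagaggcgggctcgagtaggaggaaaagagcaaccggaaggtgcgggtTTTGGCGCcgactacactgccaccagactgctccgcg

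Rrm2, which encodes the small subunit of ribonucleotide reductase and so supplies DNA building blocks, changed most. It was 7.79 to 10.19 in bled knees (median 9.38), 5.03 to 8.67 in contralateral knees (median 5.59) and 5.42 to 6.61 in sham knees (median 5.80). All bled knees were above all sham knees and, except for K10 at 8.67, above all contralateral knees, where the next value was 6.66. The difference from the contralateral knee was 3.27 ± 0.32 (SE, 11 arrays each), 9.66-fold, with an adjusted p of 6.58e-10. A dimmer probe set for Rrm2 gave 2.46 ± 0.27.

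The Mcm2 to Mcm7 genes encode the ring-shaped helicase that opens DNA at replication origins, and all 6 were called higher. Mcm5 was 8.28 to 9.47 in bled knees (median 8.97), against 5.38 to 8.25 in contralateral (median 6.13) and 5.74 to 6.46 in sham knees (median 6.06). Its groups did not overlap even with K10 at 8.25 (difference 2.71 ± 0.23, adjusted p 3.25e-11). Mcm3 rose by 2.05 ± 0.18 (adjusted p 5.52e-11), from 6.61 to 8.53 in contralateral knees (median 7.24) to 8.78 to 9.71 in bled knees (median 9.53). Mcm6, Mcm4, Mcm2 and Mcm7 rose by 1.97, 1.74, 1.63 and 1.03. Against sham Mcm5 differed most of the 6 (2.89), and bled and sham arrays overlapped for none of them.

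Genes that load or switch on the helicase rose as well. Cdc6, a loader, was 6.21 to 7.55 in bled knees (median 6.98), 4.13 to 6.34 in contralateral (median 4.60) and 4.53 to 5.34 in sham knees (median 4.80). Its difference was 2.21 ± 0.20 (adjusted p 7.09e-11), and only the contralateral knee of K10 reached into the bled range. Gins1, part of the GINS complex that completes the active helicase, rose by 2.17 ± 0.24 (adjusted p 5.21e-09), from 4.03 to 6.68 (median 4.93) to 6.16 to 7.95 (median 7.45). Cdc45 and Cdt1 rose by 1.51 and 1.23, Mcm10 by 1.33 and Gins2 by 0.77.

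Other genes of DNA synthesis changed less. Pcna, the sliding clamp of DNA polymerases, was 9.76 to 10.35 in bled (median 10.12), 8.84 to 9.58 in contralateral (median 9.03) and 8.69 to 8.85 in sham knees (median 8.81). Its groups did not overlap, although its rise was only 1.03 ± 0.08 (adjusted p 1.54e-12). Prim1 and Pola1, of the primase and polymerase alpha, rose by 1.04 and 0.62. Tyms, the thymidylate synthase gene, changed least of the class, by 0.50 ± 0.15 (adjusted p 0.00751). It was 8.26 to 9.36 in bled (median 8.78), 7.95 to 9.12 in contralateral (median 8.26) and 7.68 to 8.39 in sham knees (median 8.23), and it was the only S phase member not higher on the bled side in all 11 rats (10 of 11).

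The mitosis genes rose by 0.59 to 2.78, with a median of 1.64, and 18 of 21 at least doubled. Their class mean was 6.51 to 8.23 in bled knees (median 7.27), 5.36 to 7.45 in contralateral knees (median 5.57) and 5.58 to 6.22 in sham knees (median 5.85). Bled knees thus spread widely: 6 of them lay between 6.51 (K1) and 7.27 (K5), and 5 between 7.92 (K8) and 8.23 (K11). In the S phase mean the same 11 knees ran from 7.80 to 8.81 with no such gap, K10 at 8.57 lying next above K5 at 8.42.

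The promoters of mitosis genes held other words. The CHR, here TTTGAA or TTCGAA on either strand, was in 13 of 18 mitosis promoters (72.2%), 2 of 14 S phase promoters (14.3%) and 0 of 5 G1 regulator promoters, against 19.5% of all promoters. CCAAT was in 15 of 18 (83.3%) and 11 of 14 (78.6%), against 37.7%, and both CHR and CCAAT in 12 of 18 (66.7%) and 1 of 14 (7.14%), against 7.83%. The 120 bases before the start are shown for 5 mitosis genes that hold both within them: Cdk1 at chr20:19265173-19265292 on the plus strand, Ccnb2 at chr8:79981659-79981778 on the minus strand, Top2a at chr10:84473094-84473213 on the minus strand, Prc1 at chr1:143659361-143659480 on the plus strand and Cdc20 at chr5:137255800-137255919 on the minus strand. Capitals mark CHR words and CCAAT, or their reverse complements.
Cdk1: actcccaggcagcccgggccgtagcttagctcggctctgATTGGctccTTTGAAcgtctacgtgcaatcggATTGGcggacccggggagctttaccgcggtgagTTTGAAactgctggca
Ccnb2: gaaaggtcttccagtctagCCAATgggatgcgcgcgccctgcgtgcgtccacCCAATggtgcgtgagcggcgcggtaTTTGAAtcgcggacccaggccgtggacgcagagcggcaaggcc
Top2a: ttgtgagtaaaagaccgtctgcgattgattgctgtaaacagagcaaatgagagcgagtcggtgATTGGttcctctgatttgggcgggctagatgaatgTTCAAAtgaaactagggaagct
Prc1: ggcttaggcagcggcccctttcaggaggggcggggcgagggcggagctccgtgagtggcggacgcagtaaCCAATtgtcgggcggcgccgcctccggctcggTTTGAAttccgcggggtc
Cdc20: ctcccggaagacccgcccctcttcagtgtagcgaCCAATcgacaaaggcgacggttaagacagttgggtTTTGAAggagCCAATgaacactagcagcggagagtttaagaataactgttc

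Mki67 encodes the Ki-67 protein of dividing cells. It was 8.19 to 10.50 in bled knees (median 9.76), 6.03 to 10.16 in contralateral knees (median 6.33) and 6.57 to 7.84 in sham knees (median 7.20). Bled and sham knees did not overlap, while the contralateral knee of K10 at 10.16 was above its own bled knee by 0.15 and far above the next contralateral knee (7.32). The difference was 2.78 ± 0.36 (adjusted p 1.29e-07) against contralateral and 2.27 ± 0.41 (adjusted p 3.05e-05) against sham.

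Top2a, the topoisomerase that untangles sister chromatids, rose by 2.68 ± 0.34 (adjusted p 8.64e-08), from 4.92 to 8.48 in contralateral (median 5.31) to 7.06 to 9.40 in bled knees (median 8.28). Ccna2, the gene of cyclin A2, rose by 2.58 ± 0.30 (adjusted p 1.31e-08), from 4.86 to 7.87 (median 5.15) to 7.08 to 9.12 (median 7.95). In both, the overlap came from K10, whose contralateral values were 8.48 and 7.87, against 6.30 and 6.13 in the next knees. Sham knees reached 6.63 for Top2a and 6.32 for Ccna2, below every bled knee.

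The kinases of mitosis followed. Ttk, of the spindle checkpoint, rose by 2.41 ± 0.28 (adjusted p 1.94e-08), from 3.60 to 6.14 (median 4.07) to 5.46 to 7.77 (median 6.80), and Aurkb, which corrects spindle attachments, by 2.20 ± 0.24 (adjusted p 7.17e-09), from 4.84 to 7.26 (median 5.33) to 6.65 to 8.44 (median 7.66). Cdk1, the kinase that drives entry into mitosis, rose by 2.00, Plk1 by 1.77 and Aurka by 1.00. The checkpoint genes Bub1b and Bub1 rose by 1.64 and 1.34. The spindle motors Kif11, Kif20a and Kif23 rose by 1.76, 1.71 and 1.48, and Prc1, which bundles microtubules between the separating chromosomes, by 1.71 ± 0.21 (adjusted p 7.57e-08).

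Changes were smallest for Ccnb2 (0.59 ± 0.16, adjusted p 0.00461), a B-type cyclin gene, at 8.29 to 9.52 in bled and 7.84 to 9.15 in contralateral knees. A dimmer Ccnb2 probe set gave 1.57, so its size depended on the probe set. Cdc20, an activator of the anaphase-promoting complex, rose by 0.97, and Foxm1, a transcription factor for this gene group, by 1.03. Cdc25c, a phosphatase that switches Cdk1 on, Nusap1, Ccnb1 and Cenpf rose by 1.23 to 1.47. Of the 21 genes 18 were higher on the bled side in all 11 rats, and Mki67, Ccnb1 and Nusap1 in 10.

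**Figure D2:**
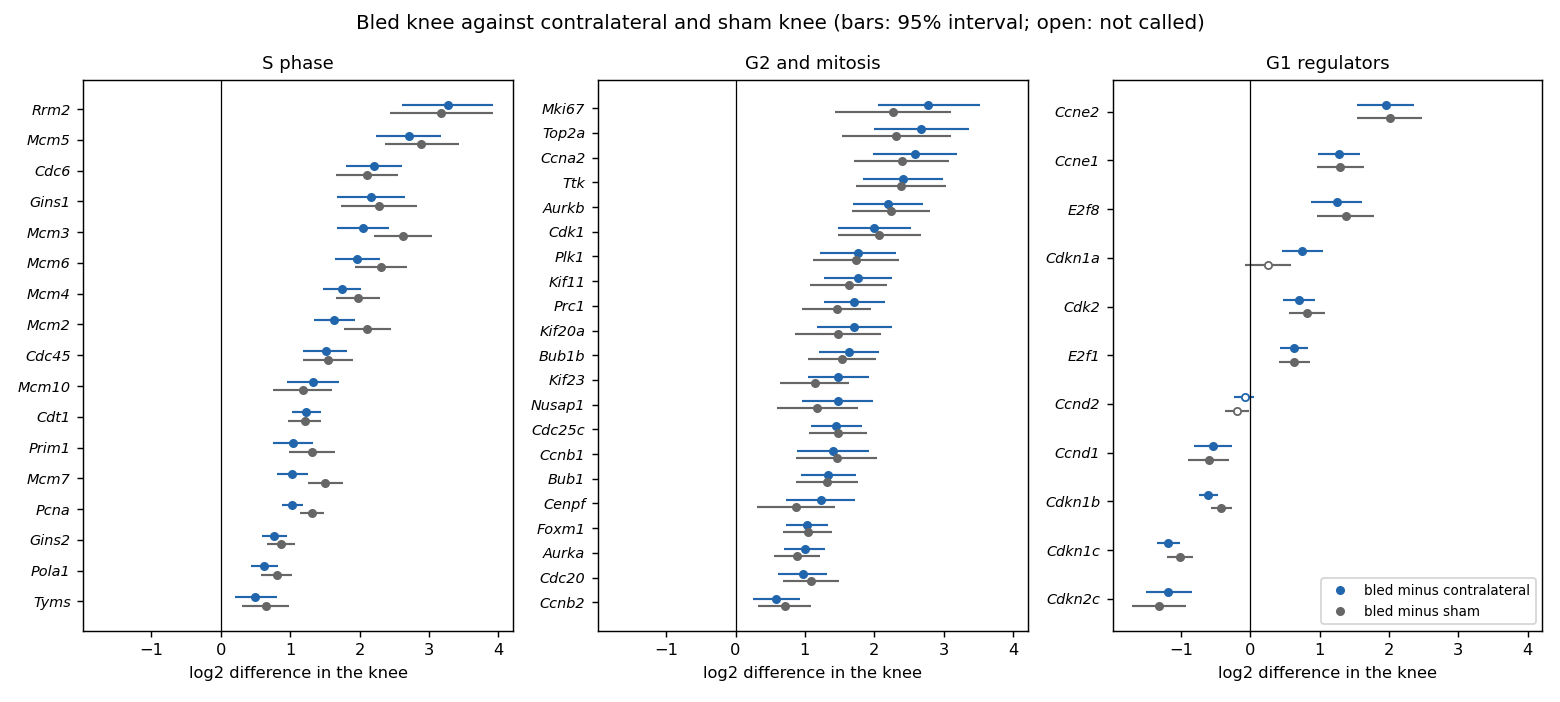
Points are log2 differences of the bled knee from the contralateral knee and from the sham knee for each of the 49 genes, with 95% intervals from limma. Open points were not called. The S phase and mitosis genes lie to the right of 0 in both comparisons, from 0.50 (Tyms) to 3.27 (Rrm2) against the contralateral knee, whereas the G1 regulators lie on both sides of 0.

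The G1 regulators moved in both directions, and genes of 1 role did not always move together. The E-type cyclin genes, whose proteins push cells into S phase, rose: Ccne2 was 6.26 to 8.31 in bled knees (median 7.63), 5.02 to 6.85 in contralateral (median 5.50) and 5.25 to 5.68 in sham knees (median 5.55). Its difference was 1.95 ± 0.20 (adjusted p 1.81e-09), while Ccne1 rose by 1.28 ± 0.15 (adjusted p 1.26e-08), from 5.50 to 6.84 (median 5.81) to 6.41 to 7.68 (median 7.10). Their partner kinase gene Cdk2 rose by 0.70. E2f1, an activating E2F gene, rose by 0.63, and E2f8, a repressing one, by 1.25 ± 0.18 (adjusted p 8.37e-07), from 5.61 to 7.21 (median 5.79) to 6.27 to 7.96 (median 7.12).

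D-type cyclin genes, which answer to growth factors, did not rise. Ccnd1 fell by 0.54 on the log2 scale (SE 0.13, adjusted p 0.00116): it was 7.65 to 8.27 in bled (median 8.02), 7.60 to 9.07 in contralateral (median 8.56) and 8.41 to 8.83 in sham knees (median 8.59). Every bled knee was below every sham knee, and in 10 of 11 rats the bled side was lower. Ccnd2 was 10.41 to 10.84 in bled, 10.34 to 11.01 in contralateral and 10.70 to 11.00 in sham knees, with overlapping groups. Its difference was −0.08 (95% interval −0.23 to 0.06, adjusted p 0.443) against contralateral and −0.19 (−0.36 to −0.02, adjusted p 0.0719) against sham. The latter was called lower under 4 alternatives, with quantile normalization at −0.32 (adjusted p 0.00124).

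3 of the 4 inhibitor genes fell. Cdkn1c, which encodes p57, was 5.80 to 6.67 in bled knees (median 6.46), 7.41 to 7.77 in contralateral knees (median 7.53) and 7.15 to 7.52 in sham knees (median 7.49). No bled knee overlapped either control group, K10 included, and the difference was −1.18 ± 0.08 (adjusted p 3.07e-13). Cdkn1b, which encodes p27, was 9.06 to 9.39 in bled (median 9.19), 9.48 to 10.17 in contralateral (median 9.75) and 9.24 to 9.79 in sham knees (median 9.64). It differed by −0.61 ± 0.07 (adjusted p 4.25e-09), with no overlap of bled and contralateral knees. Cdkn2c, which encodes p18, differed by −1.18 ± 0.16 (adjusted p 5.52e-07), at 7.10 to 8.33 (median 7.65) against 8.25 to 9.48 (median 8.76). These 3 genes were lower on the bled side in all 11 rats.

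The fourth, Cdkn1a, which encodes p21 and answers to p53 and to stress, went the other way. It was 8.11 to 9.55 in bled knees (median 8.77), 7.41 to 8.66 in contralateral knees (median 8.05) and 8.21 to 9.19 in sham knees (median 8.60). It was higher than in the contralateral knee by 0.75 ± 0.14 (adjusted p 6.81e-05; 10 of 11 rats), but against sham the difference of 0.25 had an interval from −0.08 to 0.58 and an adjusted p of 0.243. The contralateral knee itself stood at −0.50 from sham (−0.84 to −0.17, adjusted p 0.11).

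**Figure D3:**
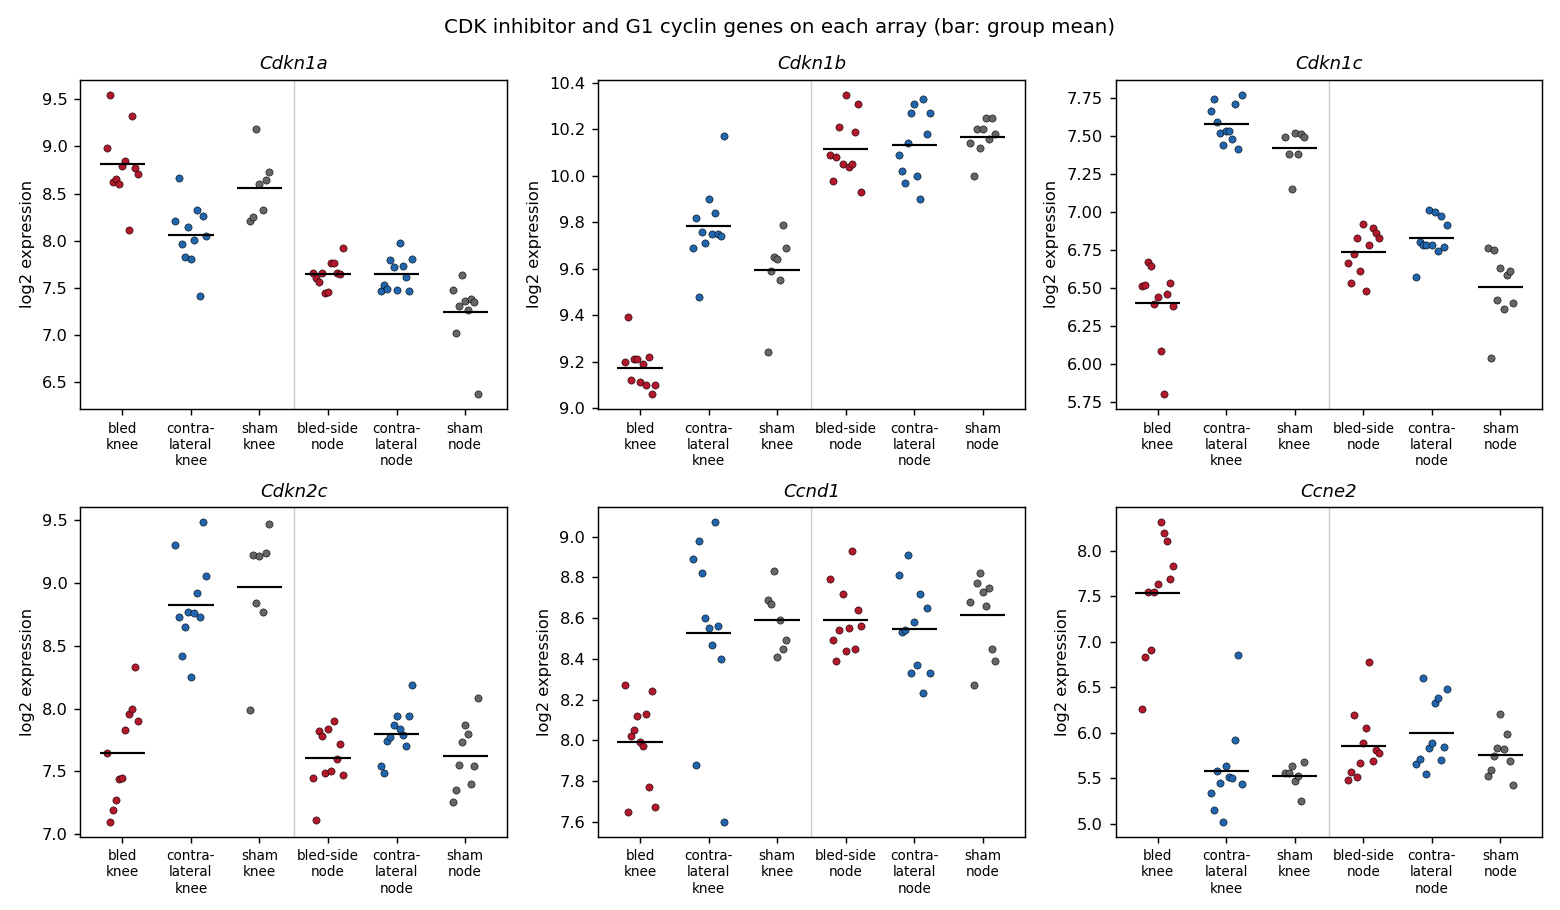
Each point is the log2 value of 1 array, and bars are group means, for the inhibitor genes Cdkn1a, Cdkn1b, Cdkn1c and Cdkn2c and the cyclin genes Ccnd1 and Ccne2 in the 3 knee and 3 node groups. Bled knees are apart from both other knee groups for Cdkn1c (5.80 to 6.67 against 7.15 and above), while for Cdkn1a they overlap the sham knees. Vertical scales differ and do not start at 0.

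Against sham knees, which came from other rats, 43 members were called higher (19.9% of all probe sets) and 4 lower (18.8%): all 17 S phase genes, all 21 mitosis genes, and 5 higher and 4 lower G1 regulators. Both comparisons share the bled knees. Every bled array was above every sham array for 15 S phase, 12 mitosis and 2 G1 regulator genes (9.52% of all probe sets), and below for Cdkn1c and Ccnd1 (5.11%). Against contralateral knees the counts above were 7, 0 and 0 (7.9%), and Cdkn1b and Cdkn1c were below (5.61%). Without the contralateral knee of K10 they were 14, 18 and 4 above (8.91%) and 2 below (6.01%).

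Other genes of the same steps were read from a wider list, of which 112 were measured. This list too was chosen with earlier results of these data known. In bled against contralateral knees 99 of the 112 were called higher (19.5% of all probe sets were), 6 lower (15.2%) and 7 not called. Of the S phase genes 34 of 35 were higher, and of the mitosis genes 49 of 51 were higher and 1 lower. Of the genes listed as G1 regulators 16 of 26 were higher and 5 lower. The largest S phase changes were Uhrf1 (2.62 ± 0.23), which helps copy DNA methylation, Dtl (2.43 ± 0.23), which marks Cdt1 for destruction, and Hells (2.02 ± 0.16), a chromatin remodeller. In mitosis they were the kinase gene Pbk (2.31 ± 0.26), the kinetochore gene Nuf2 (2.16 ± 0.26) and Mybl2 (2.14 ± 0.21), and the 1 gene that fell was Cdc25b (−0.48 ± 0.18), which was not called against sham (0.13).

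Among the genes listed as other G1 regulators, Rbl1 (1.84 ± 0.13), of the retinoblastoma family, E2f7 (1.35 ± 0.15) and Gadd45g (1.25 ± 0.13) rose most. Tfdp2 (−1.41 ± 0.12), the gene of an E2F partner, Wee1 (−0.96 ± 0.14), which holds back Cdk1, and Ccng2 (−0.63 ± 0.10) fell most. Since Cdk1 drives entry into mitosis, Wee1 acts there, and this list is not confined to G1. Wee1 was the only one of the 112 called in contralateral against sham knees, where it was higher (0.78 ± 0.16, adjusted p 0.00613 in limma). Of all probe sets 0.984% were called higher there and 0.831% lower. In bled against sham knees Wee1 was not called (−0.18).

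Markers of other cells changed as well. In bled against contralateral knees the 8 adipocyte genes were all lower, with array means of 8.01 to 9.54 against 10.89 to 11.70, and the 6 endothelial genes were all lower. Of the T cell genes 8 of 9 were higher and 1 lower, of the macrophage genes 7 of 9 and 1, and of the neutrophil genes 6 of 8 and 1. Synovial fibroblast genes were 2 higher and 6 lower of 10, and germinal centre genes 2 and 1 of 5. Of 7 B cell genes 2 were higher, of 6 red cell precursor genes 1 was higher, and of 6 muscle genes 1 was lower. Over all probe sets 19.5% were called higher and 15.2% lower. With the adipocyte mean as a covariate, 22 members were called higher and 1 lower in each of the comparisons with contralateral and with sham, and Cdkn2c changed sign without being called (0.58 and 0.51). Among genes that lost the call against contralateral, Rrm2 was at 3.09, Mki67 at 3.58 and Top2a at 3.54 (adjusted p 0.0968, 0.0802 and 0.0633 in limma). Gins1 was at 1.87, Cdkn1a at 0.99 and Cdkn1b at −0.49 (adjusted p 0.191, 0.274 and 0.224). The adipocyte means of bled and contralateral knees did not overlap, so these estimates carry a trend within groups beyond the range measured in either group. Over all probe sets that covariate left 1623 calls of 12728, and the part of these cells in the result was not tested. In bulk tissue more dividing cells and more message per cell cannot be told apart.

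Rat K10 was the exception on the contralateral side. Its contralateral knee was above the 10 other contralateral knees for all 17 S phase genes, all 21 mitosis genes and 6 of 11 G1 regulators. The same array was above the others for 8 of 8 neutrophil genes (mean 8.47, next 6.57) and 5 of 6 red cell precursor genes (mean 7.37, next 6.32). Ahsp, the stabiliser of free alpha haemoglobin, was 8.22 there against 5.65 or less, and the granule gene Elane 6.94 against 5.04 or less. Among contralateral knees K10 also had the highest T cell (6.98), macrophage (10.29) and germinal centre (7.51) means and the lowest endothelial mean (9.90). For B cell, adipocyte, synovial fibroblast and muscle genes its mean was neither the highest nor the lowest. In the bled knees of K2 and K11 the precursor mean was also high (7.61 and 7.05, others up to 6.22), with mitosis means of 6.97 and 8.23. The part of these cells in the values of the 3 arrays was not tested. Without all 3 arrays the counts stayed 44 higher and 4 lower against contralateral, and 43 and 4 against sham.

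**Figure D4:**
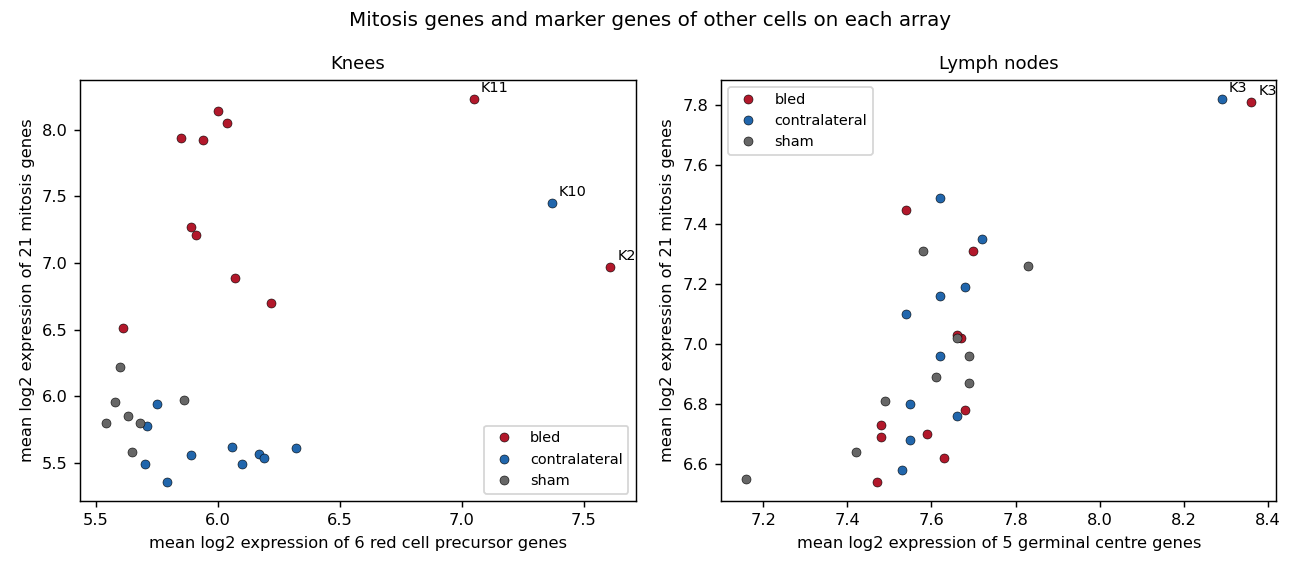
Each point is 1 array, with the mean log2 expression of 21 mitosis genes on the vertical axis. The horizontal axis is the mean of 6 red cell precursor genes for knees (left) or of 5 germinal centre genes for nodes (right). The contralateral knee of K10 and the bled knees of K2 and K11 lie to the right of all other knees, and both nodes of K3 lie at the upper right. Axes do not start at 0.

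Few members differed between contralateral and sham knees. Only Mcm7 was called (0.47 ± 0.12, adjusted p 0.0422), and none was lower, against 0.984% of all probe sets higher and 0.831% lower. It was at 7.85 to 8.62 against 7.23 to 8.04. The medians over members and all probe sets were 0.02 and −0.02. No member was called in 13 of the 29 fits that left out 1 array, those without contralateral K10 and without sham C5 among them.

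In the lymph nodes the bled side was compared with the contralateral side of the same rats, as groups without pairing. No member was called in limma, and none had an unadjusted p under 0.05, nor was any of the 36685 probe sets called (0%). Differences of the members ran from −0.22 to 0.06, and 1 of 21 mitosis genes was above 0. With rat as a fixed block, still no member was called, and 5 had an unadjusted p under 0.05, all lower on the bled side: Mki67, Cenpf, Prc1, Ccne1 and Cdkn2c (lowest adjusted p of any member 0.845). Of all probe sets 5.86% had such a p. The bled side was higher in 1 of 11 rats for Prc1 and Ccne2 and in 2 of 11 for Mki67, Bub1 and Ccne1. At the other end it was higher in 8 of 11 for Mcm3 and in 7 of 11 for Mcm4, Ccnb2, E2f1 and Cdkn1a. The remaining members lay in between. Mki67, for example, was 8.42 to 10.23 on the bled side (median 8.82), 8.46 to 10.50 on the other (median 9.18) and 8.65 to 9.45 in sham nodes (median 9.01). For Rrm2 the same groups were at 7.82 to 9.82, 7.69 to 9.64 and 6.19 to 8.85.

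Both nodes of rat K3 were high: the mitosis mean was 7.81 on the bled and 7.82 on the contralateral side, against up to 7.45 and 7.49 in the other rats. All 21 mitosis genes were above those of every other rat on the bled side and 19 of 21 on the other. Its germinal centre mean was 8.36 and 8.29, others reaching 7.70 and 7.72, led by Mybl1 at 6.79 and 6.50 against 4.71 and 4.77 or less. Of the 5 germinal centre genes 3 were above all other rats on the bled side and 4 on the other, and Fas was so on neither. Of the S phase genes 5 and 8 of 17 were above all other rats there. Without both nodes of K3 the node counts were the same.

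Against sham nodes few members differed. Cdkn1a was higher on the bled side by 0.41 ± 0.10 (adjusted p 0.0205), the only call of 49, against 1.91% of all probe sets higher and 2.34% lower, at 7.44 to 7.92 against 6.37 to 7.63. On the contralateral side Cdkn1a (0.40 ± 0.10, adjusted p 0.0218), Cdkn1c (0.32 ± 0.08, adjusted p 0.014) and Tyms (0.33 ± 0.10, adjusted p 0.0384) were called higher and none lower, against 2.22% and 2.81% of all probe sets. Both comparisons share the sham nodes, of which C9 was lowest for Cdkn1a (6.37, next 7.02) and Tyms (8.04) and C2 for Cdkn1c (6.04). All these calls were lost without the sham arrays C2 and C9 (Cdkn1a 0.25 on each side). Without C2 alone 0 members were called on the bled side and 1 on the other.

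The difference between sides was itself compared between the tissues in a model of all 60 arrays. It was larger in the knee than in the node for 44 members and smaller for 4, against 15.5% and 12.4% of all probe sets, and Ccnd2 was not called (−0.15, 95% interval −0.40 to 0.10). The median over members was 1.49 and over all probe sets 0.00. Rrm2 (3.37), Mki67 (2.99), Top2a (2.85) and Mcm5 (2.79) had the largest values.

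The last question was how the bled knee compares with a tissue in which cells normally divide. In sham rats 39 of 49 members were lower in the knee than in the node (28.3% of all probe sets were) and 3 higher (24.3%). By class, 16 of 17 S phase genes, 19 of 21 mitosis genes and 4 of 11 G1 regulators were lower, and the 3 higher ones were Cdkn1a (1.33), Cdkn1c (0.91) and Cdkn2c (1.34). The member median was −0.81. Mcm3 was furthest below, by 3.67 on the log2 scale.

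In bled rats fewer members were lower in the knee. Against the node of the bled side, 24 members were higher (20.1% of all probe sets were), 5 lower (21.2%) and 20 not called, with a median of 0.42 over members and 0.02 over all probe sets. Of the S phase genes 10 were higher and 1 lower, of the mitosis genes 9 and 0, and of the G1 regulators 5 and 4. Differences within a gene between the tissues rest on the deposited scale, and quantile normalization over all arrays gave 25 higher and 5 lower.

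Ccne2 was highest relative to the node, at 6.26 to 8.31 in bled knees and 5.48 to 6.77 in their nodes, a difference of 1.68 (95% interval 1.32 to 2.03) and higher in the knee in all 11 rats. Prc1 (1.44), Cdkn1a (1.17), Ttk (1.12) and Mcm10 (1.09) came next. Prc1 was 7.00 to 8.62 in the knee and 5.94 to 7.34 in the node, also higher in all 11 rats. For the proliferation marker Mki67 the tissues were not told apart (0.45, −0.14 to 1.05), nor for Top2a (0.24, −0.32 to 0.80), Kif11 (0.00, −0.41 to 0.40), Ccnb1 (−0.03, −0.44 to 0.37) or Cdk2 (−0.06, −0.26 to 0.14).

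5 genes were lower in the bled knee than in the node, of which Mcm3 and Cdkn1b were also lower in sham rats and Cdkn1c was higher there. Mcm3 was 8.78 to 9.71 in the knee and 9.85 to 10.65 in the node, a difference of −1.01 (−1.29 to −0.73), with no overlap. Arrays did not overlap for Ccnd1 and Cdkn1b either (8.96% of all probe sets were wholly lower), and for Cdkn1a every bled knee was above every node (7.65%). The 5 partners of Mcm3 in the helicase ring did not follow it. Mcm2, Mcm4 and Mcm6 were higher (0.33, 0.31 and 0.42), and Mcm5 and Mcm7 were not called (0.40 and 0.05). Mcm5 was called higher with centred arrays (0.48, adjusted p 0.0479) and without the arrays of K10, K2, K11 and K3 that stood apart (0.48, adjusted p 0.0127). A second Mcm3 probe set gave −0.96. The others were Cdkn1b (−0.94), Ccnd1 (−0.60), Ccnd2 (−0.36) and Cdkn1c (−0.34), the first with all bled knees at 9.06 to 9.39 and their nodes at 9.93 to 10.35. All 7 B cell and all 9 T cell genes were also lower in the bled knee than in the node. All 10 synovial fibroblast and all 6 muscle genes were higher, as were 8 of 9 macrophage and 6 of 8 adipocyte genes. Of the neutrophil genes 7 of 8 were higher and 1 lower, and of the red cell precursor genes 3 of 6 and 1. Endothelial genes were 2 higher and 1 lower of 6, and germinal centre genes 2 and 2 of 5. Over all probe sets 20.1% were called higher and 21.2% lower. The part of these cells in the differences was not tested.

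**Figure D5:**
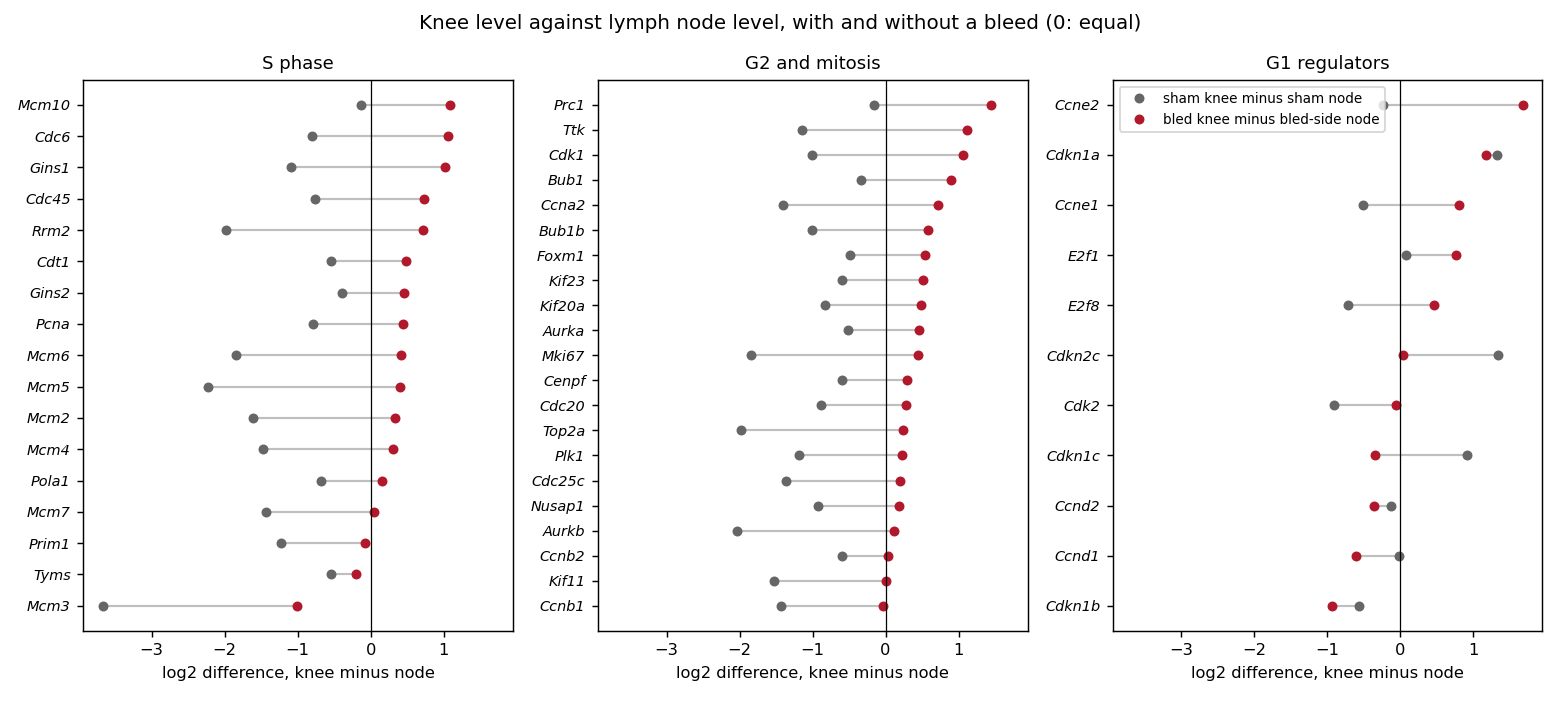
Points are log2 differences, knee minus node, for each of the 49 genes in sham rats and in bled rats (bled side), joined by a line. At 0 the tissues are level. All 38 S phase and mitosis genes lie left of 0 in sham rats. In bled rats all but Mcm3 (−1.01), Tyms (−0.20), Prim1 (−0.08) and Ccnb1 (−0.03) lie at 0 or to its right. Some G1 regulators, Cdkn1b, Cdkn1c, Cdkn2c and Ccnd1 among them, move the other way.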

How the data were processed

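RNA from 29 knee and 31 node samples was measured on Affymetrix arrays. Per the submitters' processing notes the authors made the deposited log2 values with RMA in Affymetrix Expression Console 1.4.46. The sources used here do not give batches or say whether both tissues were normalized together. The number of arrays limited the precision. Of 36685 probe sets, 18511 had 1 gene symbol, 575 several and 17599 none. Models were fitted to all probe sets, per tissue or over all 60 arrays, with limma 3.58.1 in R 4.3.3, with Benjamini-Hochberg adjustment over all of them, and were tested on simulated data.

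Members and lists were chosen with earlier results of these data known. The genes given in full were the 5 largest changes per class, the inhibitors, the D-type cyclins, members called in nodes or in contralateral against sham knees, the 5 furthest apart each way between bled knee and node, and the 3 largest changes each way per wider list. Others are named by class.

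Rat pairs the sides, since both come from 1 animal: deviations correlated by −0.10 to 0.21 in knees and 0.12 to 0.32 in nodes. The fits reported have no block. Alternatives were other scalings, filters, priors, weights, blocks, marker covariates, other probe sets and leaving out arrays. Leaving out K10, K2, K11 and K3 was chosen after the data were seen. Promoters came from RefSeq (GRCr8).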

Additional observations from a re-analysis of the deposited data

Results flagged for a closer look

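The difference between the bled and the contralateral side was not the same in knee and node for 48 of 49 members. This was the contrast between tissues in limma at an adjusted p under 0.05. Over all probe sets 15.5% were called larger in the knee by it and 12.4% smaller. Member differences between node sides ran only from −0.22 to 0.06, so the values below lie close to those of the knee alone. Among the S phase genes named, the excess in the knee was 3.37 for Rrm2, 2.79 for Mcm5, 2.32 for Cdc6, 2.20 for Gins1, 2.03 for Mcm3, 1.42 for Mcm10, 1.04 for Mcm7 and 0.53 for Tyms. Among the mitosis genes it was 2.99 for Mki67, 2.85 for Top2a, 2.61 for Ccna2, 2.60 for Ttk, 2.29 for Aurkb and 1.93 for Prc1. Of the G1 regulators, Ccne2 (2.09), Ccne1 (1.43), E2f8 (1.31) and Cdkn1a (0.75) were on the same side, and Cdkn1c (−1.09), Cdkn2c (−0.98), Cdkn1b (−0.59) and Ccnd1 (−0.59) on the other.

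Among the sham groups, 7 values lay far from the rest of their group by Dixon's criterion, out of 52 groups tested, and chance alone marks about 1 in 20 groups. In sham nodes rat C9 was low for Rrm2 (6.19, next 7.65), Mcm3 (9.93, next 10.35) and Cdkn1a (6.37, next 7.02). In sham knees C5 was low for Mcm3 (5.78, next 6.61) and Tyms (7.68, next 8.14). C3 was low for Cdkn1c (7.15, next 7.38) and high for Mcm10 (6.97, next 6.19).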

How the results depend on the processing

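The counts of members in the bled knee comparisons, in bled knee against node, in sham knee against node and in the contrast between tissues stayed within 1.5 times under the alternatives run, except with the adipocyte mean as a covariate: bled against contralateral and against sham then gave 22 higher (44 and 43 without it) and 1 lower (4 without it) each, and Cdkn2c turned to 0.58 and 0.51. Adipocyte means of bled and other knees did not overlap. With rat as a random replicate block, bled against contralateral knees still gave 44 higher and 4 lower, and bled knee against node 25 and 5. The block changed no call of a named gene other than Rrm2 in bled knee against node (0.72 either way, adjusted p 0.057 without and 0.0481 with it). Rrm2 was called there under 5 other alternatives too (0.72 to 1.02), and Mcm5 under 2. Ccnd2 in bled against sham knees was called lower with only the 2 groups (adjusted p 0.041), with quantile normalization (0.00124), without dim probe sets (0.0428) and with the muscle covariate (0.0395). The few calls against sham were less stable. In contralateral against sham knees the count of 1 became 0 with only the 2 groups fitted, with array weights, without the sham arrays that stand apart and without K10, K2 and K11, and 2 with centred arrays. In bled-side nodes the count of 1 became 0 with only the 2 groups, without the sham arrays that stand apart and with the adipocyte covariate, 2 with quantile normalization and 3 without dim probe sets. In contralateral nodes the count of 3 became 1 with only the 2 groups, and 0 without those sham arrays and with the covariate. Leaving out each array in turn, run within each tissue, gave, for members called higher, 44 to 44 and 43 to 43 in the bled knee comparisons, 0 to 1 in contralateral against sham knees, 0 to 0 between node sides, and 0 to 2 and 1 to 3 against sham nodes. The cause of these changes was not tested. Among members 6 were below the array median on every sham knee array, where low signal limits the size of a difference. The same limit holds for contralateral knees, where Cdc6, Gins1, Cdk1, Bub1, Bub1b, Aurkb, Kif11, Kif23, Cenpf and Ttk were below it on 10 of 11 arrays. In bled-side nodes Ttk was below it on 7 of 11 arrays and Ccne2 on 5 of 11.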
